A study of Mus musculus with 8 samples.

Results

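miR-21 and miR-22 were the microRNAs with the highest counts in small RNA libraries of immortalized mouse skin fibroblasts. The features described here are those annotated as microRNAs whose name is mmu-miR-21 or mmu-miR-22 (mmu for mouse), or begins with either name and a hyphen. There were 4 of them, both arms of each hairpin, among 813 listed microRNAs and 2403 listed small RNA features. They are listed as mmu-miR-21-5p, mmu-miR-21-3p, mmu-miR-22-3p and mmu-miR-22-5p. miR-21 and miR-22 were chosen by their normalized counts, which were the highest of all microRNAs in these libraries, so their rank and their abundance beside other microRNAs are given as a description, with no test. Tests were kept to differences between the groups.

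The fibroblasts came from skin of C57BL/6 mice that were wild type (WT) or of mir210lox/lox genotype on C57BL/6, with KO in the titles of the latter. Each genotype was cultured for 24 h at 21% O2 (normoxia) or 1% O2 (hypoxia), and each of the 4 groups had 2 libraries, numbered 1 and 2. The libraries of 1 group are called its pair below, given in number order. All cells were immortalized, and the labels do not say how many mice or clones each genotype stands for. The genotype name states floxed alleles and not their removal, which the level of miR-210-3p checks below. No label states that the libraries of a group are separate cultures, so the p-values measure the spread between these libraries only, which may be technical.

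A microRNA is cut from a hairpin transcript, and 1 arm (the guide) is usually loaded into an Argonaute protein while the other (the passenger) is mostly degraded. The guide finds messenger RNAs by pairing with its seed, bases 2 to 8 from the 5′ end. miR-21-5p is a microRNA of fibroblasts and many tumours that is known to repress Pdcd4, Spry1 and Reck and to be raised in fibrotic tissue. miR-22-3p is known as an abundant microRNA of muscle, heart and mesenchymal cells that is linked to growth arrest and senescence of fibroblasts.

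The mature sequences are shown because the seed sets which sites an arm can pair with, and because they let the members be told apart by the reads. They are the RefSeq sequences on GRCm38.p6, 5′ to 3′, with the seed in capitals. RefSeq names the first hairpin miR-21a.
miR-21-5p: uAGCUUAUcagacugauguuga
miR-21-3p: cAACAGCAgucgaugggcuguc
miR-22-3p: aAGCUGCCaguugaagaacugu
miR-22-5p: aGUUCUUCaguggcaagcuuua
All 4 arms are 22 bases long, so a length correction would not change how their counts compare. Whether different sequences were captured equally well was not tested. Shares, folds and ratios between arms are therefore those of counts, and may differ from those of molecules. The 4 seeds differ, and so do the sites they pair with, AUAAGCU for miR-21-5p and GGCAGCU for miR-22-3p. The seeds of these 2 abundant arms share their first 4 bases, as do 15 of the 1738 mature microRNAs in the RefSeq table (0.863%, the 2 members included). Among those 1738, mmu-miR-21c alone had the seed of miR-21-5p and none had the seed of another member. miR-21c is not among the listed features.
miR-21c: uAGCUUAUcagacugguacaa
Among the listed microRNAs, miR-3966 carried the 7 seed letters of miR-22-3p shifted to bases 1 to 7, shown here in capitals.
miR-3966: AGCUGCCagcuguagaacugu
miR-3966 held 11 to 38 normalized counts per library. No other listed feature shared a run of 16 bases with the sequence deposited for any of the 4 members, so an identical read of that length had no second listed feature to fall on.

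Both hairpins lie on chromosome 11. On GRCm38.p6 Mir21a is at chr11:86584067-86584158 on the minus strand, where GENCODE M21 places it in exon 12 of Vmp1, within the annotated UTR of that gene, which encodes a membrane protein of autophagy. Mir22 is at chr11:75463716-75463810 on the plus strand, in exon 2 of its non-coding host gene Mir22hg and of a transcript of Tlcd2. In the coordinates of the deposited table, for which no source used here names a build, the hairpins are 11120287 bases apart. The table lists 54 microRNA features on chromosome 11, and together they took 44.3% to 54.7% of the microRNA counts of a library. Without the 4 members they took 0.668% to 0.864%. The nearest listed microRNAs on either side were far less abundant. Beside miR-22 they were miR-132-3p at a mean of 4902 and miR-423-3p at 968, and beside miR-21 miR-1935 at 1.63 and miR-301a-5p at 71.5.

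The values are read counts normalized by the authors. They summed to 8618630 to 12167438 per library, of which microRNAs took 73.0% to 82.0%, and 1 read was worth about 0.826 to 1.14 units. miR-210-3p, the microRNA of the genotype, held 4786 and 8676 in the WT normoxia pair, 36738 and 39011 in the WT hypoxia pair, 23 and 14 in the KO normoxia pair and 10 and 32 in the KO hypoxia pair, so the libraries match their genotype labels and the WT libraries their oxygen labels. The fibroblast label was checked with 6 marker lists. All 7 listed microRNAs of fibroblasts and mesenchymal cells were present, with 753800 to 1425882 counts per library (10.7% to 14.3% of microRNA counts). The summed lists of other cell types were low, at 100 to 290 for epithelial, 832 to 3044 for haematopoietic, 116 to 279 for muscle, 565 to 1198 for neural and melanocyte and 102 to 191 for endothelial microRNAs. Some markers were not listed under the names sought and are missing from these sums. They include miR-1-3p and miR-1a-3p for muscle, miR-124-3p for neural and miR-144-3p for haematopoietic cells. miR-451 gave most of the haematopoietic counts (790 to 2986), whereas the defining leukocyte microRNAs miR-142-3p and miR-142-5p held 1 to 6 and 0 to 3.

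miR-21-5p was the most abundant microRNA in 8 of 8 libraries. It took 36.4% and 32.4% of the microRNA counts in the WT normoxia pair, 37.3% and 32.5% in the WT hypoxia pair, 34.9% and 37.7% in the KO normoxia pair, and 38.4% and 33.1% in the KO hypoxia pair. The groups overlap, and number 1 is the higher library in every group but KO normoxia. The mean over the 8 libraries was 35.3% ± 2.43 (SD, n = 8), and the highest share was 1.19 times the lowest. The 95% exact binomial interval of the lowest share was 32.3% to 32.4%, so counting error was far smaller than the spread between libraries. These intervals cover counting error only, because reads without molecular identifiers are not independent molecules.

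miR-22-3p was second in 8 of 8 libraries and more variable. It took 10.1% and 12.7% of the microRNA counts in the WT normoxia pair, 12.2% and 10.8% in the WT hypoxia pair, 9.72% and 16.4% in the KO normoxia pair, and 8.45% and 11.9% in the KO hypoxia pair. Both the lowest and the highest share came from KO libraries, and every group overlapped every other. The mean was 11.5% ± 2.41 (SD, n = 8), and the highest share was 1.94 times the lowest. miR-21-5p exceeded miR-22-3p in each library, by 2.30-fold in KO normoxia number 2 to 4.54-fold in KO hypoxia number 1.

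**Figure D1:**
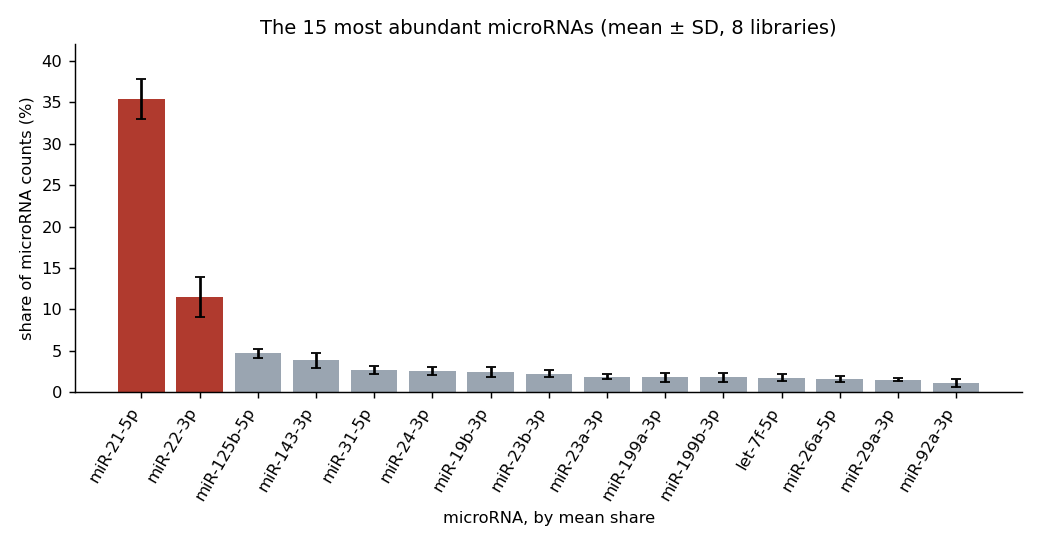
Share of microRNA counts (percent, vertical axis) of the 15 microRNAs with the highest mean share, as bars of the mean over 8 libraries with error bars of 1 SD; the member arms are red and other microRNAs grey. miR-21-5p (35.3%) and miR-22-3p (11.5%) stand above miR-125b-5p, the next at 4.74%.

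After these 2 arms came miR-125b-5p at 4.74% ± 0.54, miR-143-3p at 3.87% ± 0.87, miR-31-5p at 2.69% ± 0.51, miR-24-3p at 2.59% ± 0.48 and miR-19b-3p at 2.48% ± 0.59 (SD, n = 8). miR-125b-5p, miR-143-3p and miR-24-3p are known from mesenchymal cells, and miR-19b-3p belongs to the growth-promoting miR-17/92 cluster. The member nearest to this group, miR-22-3p, had a lowest share (8.45%) above the highest share of miR-125b-5p (5.74%). The 4 member arms together took 43.4% to 54.1% of the microRNA counts, with the highest share in KO normoxia number 2. In that library miR-21-5p and miR-22-3p alone passed 50% of the microRNA counts, whereas 3 or 4 microRNAs were needed in each of the others. To reach 90% took 32 to 40 microRNAs, out of 764 to 799 with a count above 0.

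The other arms were far less abundant. miR-22-5p ranked 64th to 94th among the microRNAs of a library, with 2877 to 9155 normalized counts, which is 0.0363% to 0.0998% of the microRNA counts. miR-21-3p ranked 334th to 393rd, with 40 to 77. The order miR-21-5p, miR-22-3p, miR-22-5p, miR-21-3p held in 8 of 8 libraries, and the ranges of neighbours in that order did not overlap.

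Whether oxygen or genotype changed the members was tested with limma on log2(normalized count + 1). The fit ran over the 1540 features with at least 10 counts in at least 2 libraries, and Benjamini-Hochberg adjustment covered all 1540. All 4 arms entered the fit. None passed an adjusted p of 0.05 in any of the 7 contrasts, nor in any alternative fit. These are bulk libraries, so fewer cells making an arm and less of it per cell cannot be told apart.

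miR-21-5p held 2815901 and 2991957 normalized counts in the WT normoxia pair and 2908184 and 3246233 in the WT hypoxia pair. The KO values were 2268463 and 2983225 under normoxia and 2701719 and 2958842 under hypoxia. The libraries of the 2 oxygen levels overlap in both genotypes, and KO normoxia number 1, the library with the lowest total, is the lowest of the 8. Hypoxia minus normoxia was 0.08 on the log2 scale in WT (limma SE 0.28, adjusted p = 1.00) and 0.12 in KO (SE 0.28, adjusted p = 0.999). As a fold this is 1.06 in WT with a 95% interval of 0.69 to 1.63, and 1.09 in KO with an interval of 0.71 to 1.67. Changes of miR-21-5p within these intervals are not separated from 0 by this design.

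**Figure D2:**
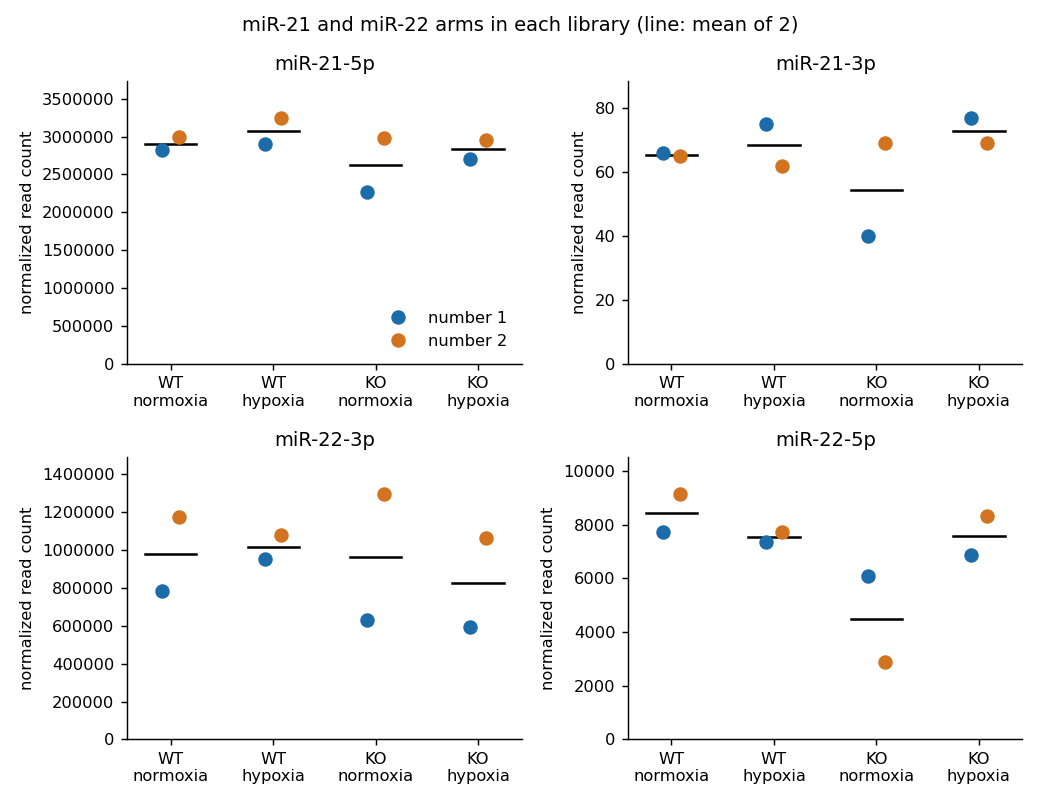
Normalized read count (vertical axis, from 0) of each member arm in the 8 libraries, by group, with libraries numbered 1 in blue and 2 in orange and a line at the mean of 2. miR-21-5p and miR-22-3p are higher in number 2 than in number 1 in 4 of 4 groups, as is the library total. miR-22-5p is lowest, at 2877, in KO normoxia number 2.

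Between genotypes miR-21-5p overlapped as well, in normoxia and in hypoxia. KO minus WT was -0.16 in normoxia (SE 0.28, limma adjusted p = 0.873) and -0.12 in hypoxia (SE 0.28, adjusted p = 0.970). Of the 1540 features, 0.0649% passed for genotype in normoxia and 0.13% in hypoxia. For oxygen 0% passed in WT (20 features at an unadjusted limma p under 0.05) and 0% in KO (83 features). Among those not passing in WT was miR-210-3p, at 4786 and 8676 in normoxia and 36738 and 39011 in hypoxia. A rise of that size thus went uncalled, so not passing does not show that a feature was unchanged. The genotype difference of miR-21-5p averaged over oxygen levels was -0.14 (SE 0.20, adjusted p = 0.789) where 0.13% of features passed. The median feature was at -0.06 for this contrast and the median microRNA at -0.17, so miR-21-5p lay between these medians. Scaling each library to its microRNA total moved the median feature by 0.19, with miR-21-5p at 0.06 and the median feature at 0.13, so miR-21-5p was below the median feature under both scalings. The 2 features that passed for this contrast, both arms of miR-210, were lower in KO. With that scaling 81 passed as higher and 4 as lower, and with the library number as a block 91 passed, as did 8 for oxygen in WT. None of these was a member arm.

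miR-22-3p held 781539 and 1172508 in the WT normoxia pair and 953493 and 1081091 in the WT hypoxia pair. The KO values were 631543 and 1298459 under normoxia and 594783 and 1062065 under hypoxia. Both WT hypoxia libraries lie between the WT normoxia libraries, and in each genotype number 2 is the higher library at both oxygen levels. Hypoxia minus normoxia was 0.08 in WT (SE 0.42, limma adjusted p = 1.00) and -0.19 in KO (SE 0.42, adjusted p = 0.999), and KO minus WT was -0.08 in normoxia (SE 0.42, adjusted p = 0.953) and -0.35 in hypoxia (SE 0.42, adjusted p = 0.967). As a fold, KO against WT in hypoxia was 0.78 with a 95% interval of 0.41 to 1.497. The gap between the libraries of a group was larger than each of these differences in 3 of the 4 groups.

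By normalized count both abundant arms were higher in number 2 of each group, where the library total was higher as well. Number 2 exceeded number 1 in 4 of 4 groups for miR-21-5p, by 0.09, 0.16, 0.40 and 0.13 on the log2 scale in WT normoxia, WT hypoxia, KO normoxia and KO hypoxia. For miR-22-3p the excess was 0.59, 0.18, 1.04 and 0.84. As shares of microRNA counts the arms did not go together. The share of miR-21-5p was higher in number 1 in every group but KO normoxia. That of miR-22-3p was higher in number 2 in every group but WT hypoxia. Of the 579 tested microRNAs, 27.5% were higher in number 2 in all 4 groups and 7.94% were higher in number 1 in all 4. The labels do not say what the number stands for, and its part in these values was not tested. Set against the 579 tested microRNAs, miR-21-5p was steady: its difference between the libraries of a group ranked 344th to 532nd from the largest. That of miR-22-3p ranked 102nd to 472nd. These ranks were not matched for abundance, and microRNAs of low count are among the 579.

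By normalized count miR-22-5p was the member whose groups did not overlap in 3 comparisons. It held 7717 and 9155 in the WT normoxia pair, 7363 and 7708 in the WT hypoxia pair, 6077 and 2877 in the KO normoxia pair, and 6852 and 8332 in the KO hypoxia pair. By count both KO normoxia libraries lie below the other 6, and KO normoxia number 2 lies far below number 1. As a share of microRNA counts, KO normoxia number 1 (0.0936%) lay above KO hypoxia number 2 (0.0933%) and WT hypoxia number 2 (0.0772%). The 2 KO groups thus overlap on that scale. As a share of all counts they did not, with 0.0705% in KO normoxia number 1 and 0.0710% in KO hypoxia number 1. KO minus WT in normoxia was -1.01 (SE 0.35, unadjusted p = 0.0175, limma adjusted p = 0.324), a fold of 0.498 with a 95% interval of 0.288 to 0.859. Among the 1540 features, 41.9% had no overlap in this comparison, so a gap between 2 pairs of libraries is common here. The difference was -0.47 without KO normoxia number 2 (adjusted p = 0.646) and -1.55 without KO normoxia number 1 (adjusted p = 0.0788), in fits where the lone library is assumed to vary like the other groups.

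Hypoxia minus normoxia for miR-22-5p was 0.85 in KO (SE 0.35, limma adjusted p = 0.804), where 28.9% of features had no overlap, and 0.31 without KO normoxia number 2. In WT it was -0.16 (SE 0.35, adjusted p = 1.00), where 25.8% had no overlap. In hypoxia the genotypes overlapped, where 35.8% of features did not, with a difference of 0.0043 (SE 0.35, adjusted p = 0.998). The interaction (change in KO less that in WT) was 1.01 (SE 0.50, adjusted p = 1.00), and 0% of features passed for it (37 at an unadjusted p under 0.05). Averaged over oxygen levels, KO minus WT for miR-22-5p was -0.50 (SE 0.25, limma adjusted p = 0.365). It was -0.23 without KO normoxia number 2 and -0.77 without number 1.

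miR-21-3p held 66 and 65 in the WT normoxia pair, 75 and 62 in the WT hypoxia pair, 40 and 69 in the KO normoxia pair, and 77 and 69 in the KO hypoxia pair. By normalized count KO normoxia number 1 is the one low library, and the groups overlap in each comparison. As a share of microRNA counts it held 0.000616%, beside 0.000621% in WT hypoxia number 2. The 95% Poisson interval of KO normoxia number 1 was 27.7 to 55.4 on the normalized scale, without scaling to library totals. That interval lies under that of KO hypoxia number 1 (61.4 to 94.7). It meets those of WT normoxia numbers 1 and 2 (51.5 to 84.4 and 49.4 to 83.7). Differences between groups ran from -0.31 for KO minus WT in normoxia (SE 0.36, limma adjusted p = 0.769) to 0.46 for hypoxia minus normoxia in KO (SE 0.36, adjusted p = 0.901). Both values moved with single libraries of the KO normoxia group. The hypoxia difference in KO was 0.08 without its number 1 and 0.85 without its number 2, and the genotype difference in normoxia was 0.07 and -0.70. The counts of miR-21-3p correspond to about 35 to 86 reads per library.

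**Figure D3:**
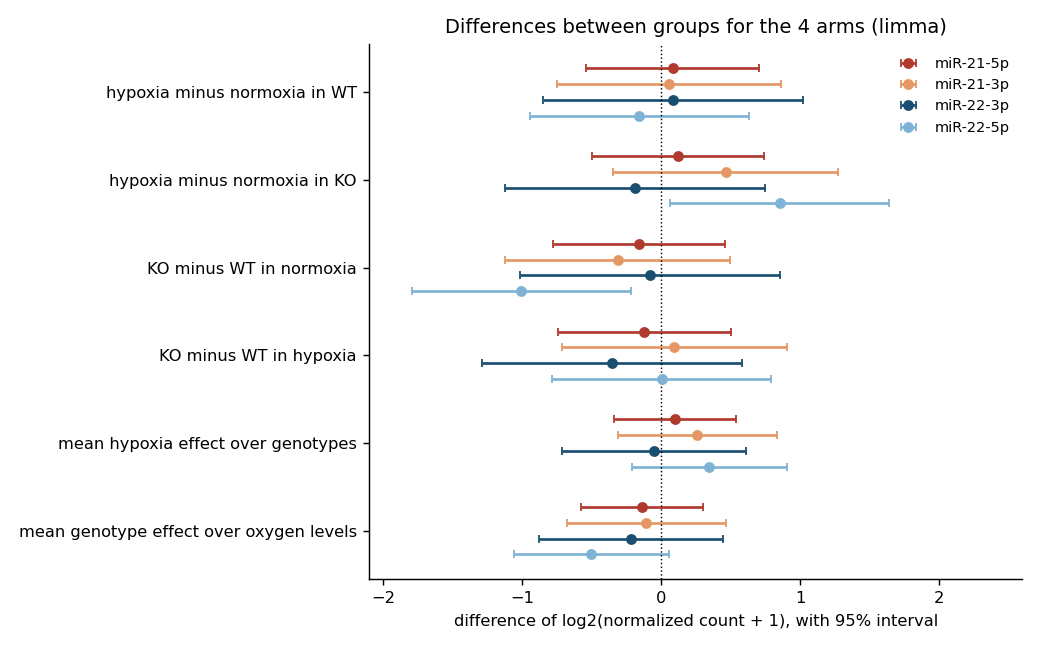
Differences between groups (horizontal axis, log2 of normalized count + 1) of the 4 arms in 6 contrasts, as limma estimates with 95% intervals before adjustment for multiple tests. The intervals include 0 except those of miR-22-5p for KO minus WT in normoxia (-1.01) and hypoxia minus normoxia in KO (0.85).

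The ratio of the arms of 1 hairpin does not depend on how a library was scaled. The miR-21 ratio, 5p over 3p, was 42665 and 46030 in the WT normoxia pair, 38776 and 52359 in the WT hypoxia pair, 56712 and 43235 in the KO normoxia pair, and 35087 and 42882 in the KO hypoxia pair. The groups overlap, and the mean log2 ratio of 15.4 ± 0.22 (SD, n = 8) was the highest of 238 microRNAs with both arms listed. The count by which miR-21 was chosen enters this ratio, so the rank is a description. The next ratio was that of miR-19a at 14.0, with a mean of 1.25 for its rarer arm. The denominator of the miR-21 ratio rests on 35 to 86 reads, so its spread carries that counting error. The median log2 ratio over the 238 was 3.13.

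The miR-22 ratio, 3p over 5p, was 101 and 128 in the WT normoxia pair, 129 and 140 in the WT hypoxia pair, 104 and 451 in the KO normoxia pair, and 86.8 and 127 in the KO hypoxia pair. Of these, KO normoxia number 2 alone lies far from the rest. Its log2 ratio of 8.82 exceeded the median of the other 7 libraries by 1.82. The same deviation in that library was taken over 159 microRNAs whose rarer arm held at least 5 in every library. It ran from -2.26 to 1.82 with a median of -0.05, and that of miR-22 was the highest. In size it was exceeded, for instance by miR-329 (-2.26). Some pairs left out by the filter were higher, such as miR-206 at 3.57. In the other 7 libraries miR-22 deviated by -0.56 to 0.14 and ranked between 69th and 125th of 159. The library was singled out after its values were seen, so this rank is a description. miR-21 in KO normoxia number 2 deviated by 0.01 and ranked 69th.

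**Figure D4:**
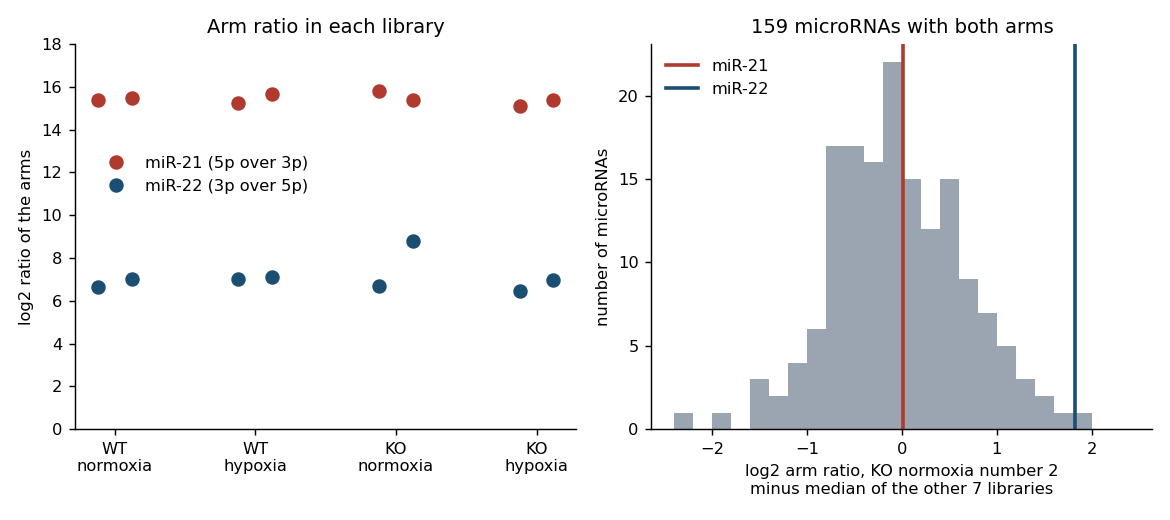
Left, log2 ratio of the abundant over the rarer arm in each library, in group order, for miR-21 (red) and miR-22 (blue). Right, histogram over 159 microRNAs of the log2 arm ratio in KO normoxia number 2 minus the median of the other 7 libraries, with miR-21 (0.01) and miR-22 (1.82) as vertical lines; miR-22 lies at the upper end.

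In KO normoxia number 2 the miR-22 arms were at opposite extremes. miR-22-3p was at its highest of 8 libraries there (1298459) and miR-22-5p at its lowest (2877). Of the 579 tested microRNAs, 145 were lowest in that library, more than in any other, and 46 were highest there.

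Shares and arm ratios were compared over 4 libraries against 4 with exact two-sided permutation tests, 16 in all, for which the smallest possible p is 0.0286. The share of miR-21-5p was 35.3% ± 2.92 in hypoxia and 35.3% ± 2.28 in normoxia, and 36.0% ± 2.42 in KO against 34.6% ± 2.57 in WT (SD, n = 4 each, exact permutation p = 0.457 for genotype). The share of miR-22-3p was 10.8% ± 1.71 in hypoxia and 12.2% ± 3.07 in normoxia (exact permutation p = 0.543), and 11.6% ± 3.49 in KO against 11.5% ± 1.19 in WT (exact permutation p = 1.00). The groups overlapped in all 16 comparisons. Over the counts of all features, 1.23% had no overlap by oxygen and 11.9% by genotype. The smallest exact permutation p of the 16 was 0.343, for the miR-21 arm ratio by oxygen, and every adjusted p was 1.00.

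Likeness of pattern was measured as the root mean square difference of log2(count + 1), centred on each microRNA's mean, over the 8 libraries and the 578 other tested microRNAs. The pattern nearest to miR-21-5p was that of miR-669m-5p at 0.06, then miR-669b-5p at 0.07 and miR-345-5p at 0.11, where the median microRNA was at 0.44. These are steady microRNAs of low or middle level, at means of 62.4, 30.5 and 6639. miR-21-3p was nearest to miR-1196-5p (0.11) and miR-3077-3p (0.20), followed by miR-21-5p, its own partner arm (0.20). miR-1196-5p and miR-3077-3p are of low count, at means of 30.5 and 9.75, and the part of counting error in their distances was not tested. miR-22-3p was nearest to miR-185-5p (0.191), miR-3102-3p.2-3p (0.195) and miR-582-3p (0.206).

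miR-22-5p was nearest to miR-669f-3p (0.17), miR-340-3p (0.18) and miR-128-3p (0.19). Each of these was lowest in KO normoxia number 2, as miR-22-5p was, with 20, 34 and 338 normalized counts against means of 49.2, 85.2 and 618. The arms of miR-22 were 0.69 apart, where the median microRNA was 0.60 from miR-22-5p, and miR-22-3p came 372nd of 578 in nearness to miR-22-5p. The arms of miR-21 were 0.20 apart. miR-21-5p and miR-22-3p were 0.29 apart, closer than either was to miR-22-5p.

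A list of 17 microRNAs of fibroblast activation and fibrosis, a setting in which miR-21-5p is known, had 0 of 17 past the limma threshold in each contrast, where 0% to 0.13% of all features passed. Its most abundant members were miR-143-3p, miR-199a-3p, miR-29a-3p (a repressor of collagen genes) and miR-199a-5p, whose KO minus WT differences averaged over oxygen were -0.41, -0.37, -0.12 and -0.26 (limma adjusted p 0.629 to 0.849). The list's median for that contrast was -0.13, where that of all features was -0.06 and that of microRNAs -0.17. miR-377-3p held 67, 140, 73 and 145 in the WT libraries and 208, 199, 200 and 202 in the KO libraries, so the genotypes did not overlap, as for 11.9% of features. Its difference was 1.01 (SE 0.30, limma adjusted p = 0.144), and it passed under 4 of the alternative fits, with 1.01 to 1.21 and adjusted p from 0.0328 to 0.0451. miR-377-3p was named after its values were seen.

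Another list held 20 microRNAs described as responding to hypoxia, without miR-210. 0 of 20 passed in any contrast, where 0% to 0.13% of all features did. With the library number as a block 1 member, miR-322-5p, passed for genotype averaged over oxygen levels, at -0.76 (limma adjusted p = 0.0451). In WT 14 were higher and 6 lower with hypoxia, with a median of 0.05, where that of all features was 0.02 and that of microRNAs 0.00023. In KO 18 were higher and 2 lower, with a median of 0.26, where the median microRNA was at 0.24. The most abundant were miR-24-3p and miR-26a-5p with miR-23b-3p and miR-23a-3p, which had WT differences of -0.09, 0.17, 0.21 and 0.26 (limma adjusted p = 1.00 each), beside 0.08 for both miR-21-5p and miR-22-3p.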

How the data were processed

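Small RNA was measured in 8 libraries, 2 for each of 4 groups. Per the labels' protocols, RNA was taken up with a Qiagen miRNeasy kit and converted to libraries by the NEBNext SOLiD set for small RNA. The deposited values are a score made by the authors, a normalized read count written as whole numbers. No source used here says how reads were trimmed, aligned (or to which build), assigned when they matched more than 1 feature, or normalized. The worth of 1 read (0.826 to 1.138) was estimated from the spacing of low values, on a grid from 0.7 to 1.4. Reads assigned were 7573489 to 13482280 per library by that estimate.

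limma 3.58.1 (R 4.3.3), with its trend option, was run on log2(value + 1). The model held 4 group means over 8 libraries, with 4 residual and 5.64 prior degrees of freedom. A feature needed at least 10 in at least 2 libraries (1540 features, 579 of them microRNAs), and Benjamini-Hochberg adjustment ran over all of them with a threshold of 0.05. A count model was not used because the values are rounded after normalization. The fit was also run on simulated data, where its median estimate had to recover the change put in. The share of such changes that it called is not given here. Shares and ratios were compared by exact permutation in SciPy 1.17.1. Intervals of shares are exact (Clopper-Pearson) binomial and those of miR-21-3p exact Poisson, both for counting error only. Libraries with the same number deviated together: the 6 correlations of their deviations between groups ran from 0.15 to 0.55, each over 0.1. The labels give no source for this pairing, and the fit without the number as a block is the one reported.

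One list of microRNAs is not reported here. The members and lists were chosen with earlier results of these data known. Named microRNAs were the 4 arms, sharers of a seed, the 5 most abundant others, the 3 nearest in pattern to each arm, the neighbours on the chromosome, the 4 most abundant of each list and miR-210-3p. Alternatives were quantile normalization, TMM factors, a mean of at least 50 or no filter, pseudocounts of 0.5 and 8, scaling to the microRNA total or to the total less the members, no intensity trend, a replicate block, the groups of a contrast alone, shares of all counts, and leaving out each library. Scaling to the total of all features was added after seeing the data. Of the listed microRNA names, 556 (68.4%) were found in the RefSeq table.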

Additional observations from a re-analysis of the deposited data

Results flagged for a closer look

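The oxygen difference of miR-22-5p ran in opposite directions in the 2 genotypes. Every WT hypoxia library lay below every WT normoxia library, with a difference of means of -900.5 normalized counts, although the nearest libraries held 7708 and 7717. Every KO hypoxia library lay above every KO normoxia library by normalized count, with a difference of 3115. As shares of microRNA counts these KO groups overlapped. Groups without overlap were common in these comparisons, at 25.8% of features in WT and 28.9% in KO. By limma over 1540 features the log2 interaction was 1.01 (SE 0.50, adjusted p = 1.00), and 0.47 without KO normoxia number 2.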

How the results depend on the processing

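None of the 4 arms passed the threshold in any of the 7 contrasts under any alternative, and none of the 16 comparisons of shares and ratios did. The smallest limma adjusted p of a member was 0.0788, for miR-22-5p in KO minus WT in normoxia without KO normoxia number 1. The replicate block gave 0.151 for the same comparison. Among fits that kept all libraries, every limma estimate of a member kept its direction except the following.

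Scaling to the microRNA total reversed miR-21-5p for hypoxia in KO (-0.024), genotype in normoxia (0.079) and in hypoxia (0.035), the interaction (-0.045), mean hypoxia (-0.0021) and mean genotype (0.057), miR-22-3p for genotype in normoxia (0.16), and miR-21-3p for hypoxia in WT (-0.0032) and mean genotype (0.084). Scaling to the total less the members gave -0.073 (hypoxia in KO), 0.036 (genotype in normoxia), -0.12 (interaction) and -0.013 (mean hypoxia) for miR-21-5p, 0.11 for miR-22-3p for genotype in normoxia and 0.0045 for miR-21-3p for mean genotype. Scaling to all features gave -0.016, 0.010 and -0.045 for the first 3 of these for miR-21-5p, 0.088 for miR-22-3p and 0.015 for miR-21-3p. Quantile normalization gave -0.036 for miR-22-5p for genotype in hypoxia. It gave no value for miR-21-5p and miR-22-3p, which rank first and second in every library and so get the same value in each. As shares of all counts, the genotype differences were -0.256 for miR-21-5p, -0.273 for miR-22-3p and -0.541 points for the 4 arms, and the oxygen difference of miR-21-5p was 0.122.

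Leaving out each library in turn gave reversals within these log2 ranges. For miR-21-5p they were -0.077 to 0.32 (hypoxia in KO), -0.36 to 0.040 (genotype in normoxia) and -0.16 to 0.24 (interaction). For miR-22-3p they were -0.21 to 0.38 and -0.71 to 0.33 (hypoxia in WT and in KO), -0.60 to 0.44 and -0.77 to 0.065 (genotype in normoxia and in hypoxia), -0.79 to 0.25 (interaction), -0.31 to 0.21 (mean hypoxia) and -0.48 to 0.043 (mean genotype). For miR-21-3p they were -0.078 to 0.19 (hypoxia in WT), -0.70 to 0.074 and -0.041 to 0.23 (genotype in normoxia and in hypoxia) and -0.30 to 0.084 (mean genotype), and for miR-22-5p -0.14 to 0.15 (genotype in hypoxia). Shares of microRNA counts for oxygen ran from -1.03 to 0.92 points for miR-21-5p, -2.21 to 0.011 for miR-22-3p, -0.0069 to 0.0143 for miR-22-5p and -2.49 to 0.759 for the 4 arms. For genotype they ran from -1.44 to 1.21 for miR-22-3p, -0.0182 to 0.0021 for miR-22-5p, -0.597 to 2.65 for the 4 arms and -3.1e-05 to 0.000128 for miR-21-3p. Log2 ratios ran from -0.15 to 0.079 for the miR-21 arms by genotype, -0.61 to 0.11 by oxygen and -0.24 to 0.55 by genotype for the miR-22 arms, and -0.0036 to 0.25 by oxygen and -0.091 to 0.24 by genotype for miR-21-5p over miR-22-3p.

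Counts of features passed moved as follows. Hypoxia in WT went from 0 to 1 (pseudocount of 8, and mean of at least 50), 2 (total less the members) and 8 (replicate block), and mean hypoxia from 0 to 3 (replicate block). Genotype in normoxia went from 1 to 2 with no intensity trend and ran from 1 to 2 without single libraries, the 2 without WT hypoxia number 2. Mean genotype went from 2 to 16 (TMM factors), 85 (microRNA total), 72 (total less the members), 73 (all features) and 91 (replicate block), and ran from 2 to 29 without single libraries, the 29 without WT hypoxia number 2. It was 4 without KO hypoxia number 2. The replicate block changed no other count of features passed by more than 1.5 times and no call of a member. At an unadjusted limma p under 0.05 it gave more features in each contrast, such as 158 instead of 83 for hypoxia in KO. The replicate block called miR-377-3p and miR-322-5p of the lists for mean genotype. The causes were not tested. With 2 libraries per group, the fold intervals of the members span about 0.29 to 3.12 over the 4 pairwise contrasts. Whether depth limits miR-21-3p was not tested.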
